A study of Mus musculus with 18 samples.

Results

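BC002163, Ndufs5 and AA465934 are 3 of the 22558 genes in the deposited gene tables of a mouse eye RNA-seq study. They were picked by symbol, because BC002163 and AA465934 were nearly absent from knockout RPE/choroid and low in knockout retina, and because Ndufs5 is the gene that BC002163 copies. All 3 symbols were found. Their differences between knockout mice and the other groups are therefore descriptions and carry no test.

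The study compared mice lacking the retinal transporter Abca4 (genotype Abca4-/-), mice homozygous for a knock-in allele with 2 substitutions (genotype Abca4L541P;A1038V/L541P;A1038V) and wild-type mice. Each genotype gave 3 libraries of retina and 3 of RPE/choroid, the retinal pigment epithelium with the vascular layer behind it, so there were 18 libraries. All mice were 30 days old, and the labels give a mixed 129SV and C57BL/6 background for all 3 genotypes, with no background of single mice. RNA was taken from whole dissected tissue between 3 and 5 PM. In such bulk RNA, fewer cells of a type and less RNA per cell cannot be told apart.

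Ndufs5 encodes an accessory subunit of complex I, the enzyme that passes electrons from NADH into the mitochondrial respiratory chain. Photoreceptors and RPE are rich in mitochondria. A processed pseudogene arises when a spliced messenger RNA is copied back into the genome, so it lacks the introns of its parent, and short reads from the parent can match it. AA465934 is annotated as a transcript with no protein product, and no function is ascribed to it here.

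The parent and the copy are printed here because their likeness bears on every value that follows. Both come from the GENCODE M21 transcripts on GRCm38, while the deposited tables use mm9. BC002163 is annotated as a processed pseudogene on the plus strand of chromosome 16, with 319 bases. The aligned stretch of Ndufs5, on the minus strand of chromosome 4, starts at its ATG. The first 240 bases of each are shown, and capitals mark the bases that differ.
Ndufs5: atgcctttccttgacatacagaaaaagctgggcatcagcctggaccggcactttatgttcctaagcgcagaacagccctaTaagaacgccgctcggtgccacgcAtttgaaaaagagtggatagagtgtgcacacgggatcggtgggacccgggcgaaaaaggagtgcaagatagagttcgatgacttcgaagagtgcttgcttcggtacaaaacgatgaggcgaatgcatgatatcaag
BC002163: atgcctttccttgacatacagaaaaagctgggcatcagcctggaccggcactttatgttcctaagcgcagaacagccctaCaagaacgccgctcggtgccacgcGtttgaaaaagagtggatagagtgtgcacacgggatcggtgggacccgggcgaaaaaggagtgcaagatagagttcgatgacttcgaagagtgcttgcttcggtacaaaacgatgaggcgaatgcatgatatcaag

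Over the 319 aligned bases the sequences were 99.37% identical. Counted from 1 at the A of the ATG, with the Ndufs5 base first, they differed by T81C and A105G, and both changes leave the encoded amino acid as it is. The bases that differ lie 24 bases apart, so within the aligned stretch a read can tell the copies apart by sequence only if it reaches one of these bases. Reads of the study were 100 bases long. Of the 220 windows of 100 bases in BC002163, 115 (52.27%) occurred unchanged in Ndufs5 transcripts, and no other gene of the annotation shared such a window. Matching reads could thus be placed at either position, and the single values of these genes are uncertain for that reason. The deposited entry of BC002163 is longer, at 500 bases, and bases beyond the annotated 319 were not compared. The share of windows therefore does not cover the whole counted entry.

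For AA465934 no such partner was found in this annotation. Its annotated transcript in the same set, from the plus strand of chromosome 11, holds 383 bases in 3 exons of 135, 131 and 117 bases, and none of its 334 windows of 50 bases occurred in a transcript of another gene. AI450353, which the deposited tables put at the same position, was not found under that name in this annotation, so the windows could not cover it. AA465934 fragments were whole numbers in 1 of 18 libraries, so its values include some division with another entry. The first 2 exons of AA465934 are shown, with the middle exon of the transcript in capitals.
AA465934: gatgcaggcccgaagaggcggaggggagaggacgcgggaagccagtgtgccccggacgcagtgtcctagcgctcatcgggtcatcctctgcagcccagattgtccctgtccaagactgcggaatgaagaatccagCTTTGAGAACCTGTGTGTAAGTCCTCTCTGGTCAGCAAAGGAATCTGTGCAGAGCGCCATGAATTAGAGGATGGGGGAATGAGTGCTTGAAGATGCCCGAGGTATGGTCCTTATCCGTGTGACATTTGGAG

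In the deposited tables, with mm9 positions, the gene row of BC002163 held 1 transcript of 500 bases at chr16:42955692-42956192 in all 18 libraries. Ndufs5 had a transcript of 509 bases at chr4:123389952-123395429, and AA465934 had one of 389 bases within chr11:83105200-83112479. The transcript tables listed a further entry under the name BC002163, with 484 bases, at the Ndufs5 position on chromosome 4. That entry was in neither gene row, so the sum of the Ndufs5 and BC002163 rows leaves it out. The authors' deposited table of FPKM by genotype does add it: it gives BC002163 as 53.1 FPKM in knockout, 113 in knock-in and 109 in wild-type retina, and as 48.6 FPKM in knockout, 127 in knock-in and 116 in wild-type RPE/choroid. The name BC002163 is used here for the chromosome 16 entry, and the chromosome 4 entry is named as such.

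The depth ran from 11.6 to 23.6 M fragments for retinal libraries and from 14.6 to 30.0 M for RPE/choroid libraries, and levels are in FPKM, fragments per kilobase of transcript and per M fragments. Abca4 averaged 78.7 ± 4.19 FPKM in knockout, 204 ± 25.8 in knock-in and 254 ± 27.4 in wild-type retina, and 26.1 ± 0.49 FPKM in knockout, 38.6 ± 3.37 in knock-in and 44.4 ± 13.1 in wild-type RPE/choroid (SD, n = 3 each). Summed markers of rods, the cells that sense dim light, stood at 20233 FPKM or more in every retinal library, and summed RPE markers such as Rpe65 at 8297 FPKM or more in every RPE/choroid library. Wild-type RPE/choroid library 2 stood apart, with 2103 FPKM of rod markers against 105 and 153 in the other two. Lens markers ranged over 315 to 9159 FPKM in knockout retina and 22.1 to 478 in wild-type retina, and their part in the results was not tested. Library numbers here are those of the deposited tables.

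BC002163 was almost missing from the knockout libraries, except for retinal library 0. In retina it measured 45.6, 0.853 and 0 FPKM in knockout libraries 0, 1 and 2, against 77.5, 89.0 and 99.4 in knock-in and 96.4, 88.3 and 87.1 in wild-type libraries. Every knockout library lay below every knock-in and wild-type library, and library 0 stood far above the other knockout libraries, at 50.4% of the wild-type mean. In RPE/choroid it measured 0, 0.633 and 0.409 FPKM in knockout, 99.3, 99.3 and 92.2 in knock-in and 103, 107 and 69.0 in wild-type libraries. No groups of knockout overlapped with the others there, and wild-type library 2 was the lowest of the libraries that held the transcript.

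Apart from retinal library 0, the knockout values rested on few fragments. Counts were 320, 6 and 0 fragments in knockout retina and 0, 4 and 4 in knockout RPE/choroid, against 308 to 534 in wild-type retina and 472 to 1023 in wild-type RPE/choroid. The knockout mean was 15.5 ± 26.1 FPKM in retina (17.1% of wild type, SD, n = 3) and 0.347 ± 0.321 FPKM in RPE/choroid (0.373% of wild type). Without knockout library 0, the retinal knockout mean was 0.427 FPKM, or 0.471% of wild type.

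**Figure D1:**
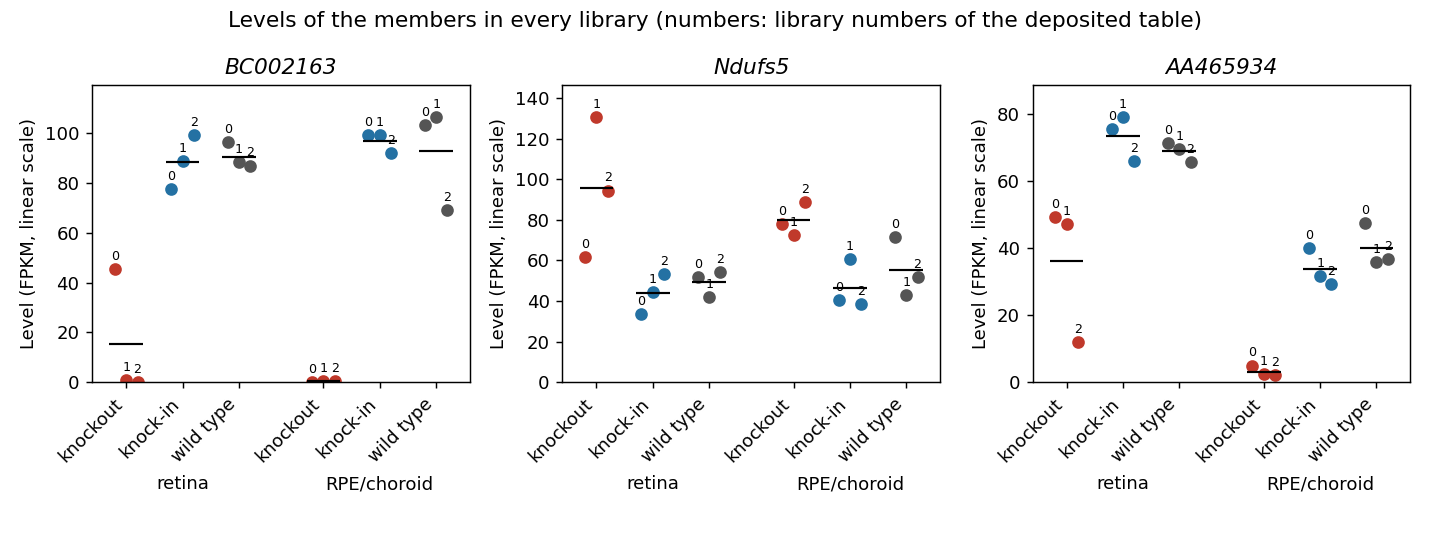
Level in FPKM (linear scale) of BC002163, Ndufs5 and AA465934 in each of the 18 libraries, by genotype and tissue; each point is a library with its table number, and the line is the group mean. BC002163 is at or near 0 in 5 of the 6 knockout libraries and at 45.6 FPKM in knockout retina library 0, and AA465934 lies between 2.09 and 4.99 FPKM in knockout RPE/choroid.

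Ndufs5 was listed higher in knockout libraries of both tissues. In retina it measured 61.9, 131 and 94.5 FPKM in knockout libraries, against 33.6, 44.5 and 53.5 in knock-in and 52.0, 41.8 and 54.2 in wild-type libraries. Each knockout library lay above each library of the other genotypes, and the lowest was library 0, the one that kept BC002163. In RPE/choroid, Ndufs5 measured 77.9, 72.5 and 88.9 FPKM in knockout, 40.4, 60.5 and 38.8 in knock-in and 71.7, 43.1 and 51.6 in wild-type libraries. The groups did not overlap there either, but the lowest knockout library was only just above wild-type library 0. The knockout mean was 194% of wild type in retina and 144% in RPE/choroid.

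The chromosome 4 entry of BC002163 took a share of the fragments at the Ndufs5 position that varied widely between libraries of 1 group. It measured 47.3, 16.7 and 48.9 FPKM in knockout, 17.1, 23.5 and 31.3 in knock-in and 9.60, 18.8 and 27.9 in wild-type retina. In RPE/choroid it measured 48.1, 75.3 and 21.5 FPKM in knockout, 37.1, 16.4 and 35.6 in knock-in and 11.9, 37.9 and 20.8 in wild-type libraries. The groups overlapped in both tissues. It held 11.1% to 42.7% of the chromosome 4 fragments in knockout retina and 18.8% to 50.1% in knockout RPE/choroid, against 15.3% to 33.1% in wild-type retina and 13.9% to 45.9% in wild-type RPE/choroid. The fragments of the 2 chromosome 4 entries summed to a whole number in 18 of 18 libraries (within 0.01), whereas those of the Ndufs5 row did so in 1, so the deposited tables divide whole fragments between these entries. The spread of Ndufs5 between replicates includes this division. BC002163 fragments on chromosome 16 were whole in 18 of 18 libraries, so no such division shows between the chromosomes. Whether whole fragments were placed at the wrong position was not tested.

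Taken as 1 quantity, the chromosome 4 entries were higher in knockout tissue. Their sum was 133 ± 21.0 FPKM in knockout, 67.8 ± 17.1 in knock-in and 68.1 ± 12.1 in wild-type retina. In RPE/choroid it was 128 ± 18.8 FPKM in knockout, 76.2 ± 1.65 in knock-in and 79.0 ± 5.84 in wild-type libraries. The knockout groups lay wholly above the others in both tissues, at 196% and 162% of wild type.

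The sum of the Ndufs5 and BC002163 rows averaged lower in knockout tissue. It was 108, 132 and 94.5 FPKM in knockout, 111, 134 and 153 in knock-in and 148, 130 and 141 in wild-type retina. The retinal groups overlapped, and the knockout mean of 111 ± 18.9 FPKM was 79.5% of the wild-type mean of 140 ± 9.20. In RPE/choroid the sum was 77.9, 73.2 and 89.4 FPKM in knockout, 140, 160 and 131 in knock-in and 175, 150 and 121 in wild-type libraries. All knockout libraries there lay below all others, at 54.0% of the wild-type mean.

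With the chromosome 4 entry added, the total over the 3 entries differed less between the genotypes. In retina it was 155, 148 and 143 FPKM in knockout, 128, 157 and 184 in knock-in and 158, 149 and 169 in wild-type libraries, and the groups overlapped. The knockout mean was 149 ± 5.76 FPKM, 93.9% of wild type; without knockout library 0 it was 92.0% and the libraries no longer overlapped with wild type. In RPE/choroid the total was 126, 148 and 111 FPKM in knockout, 177, 176 and 167 in knock-in and 187, 188 and 141 in wild-type libraries. The knockout mean there was 128 ± 18.9 FPKM, 74.7% of wild type, and it overlapped with wild type only through wild-type library 2; without that library it was 68.6%, with no overlap.

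**Figure D2:**
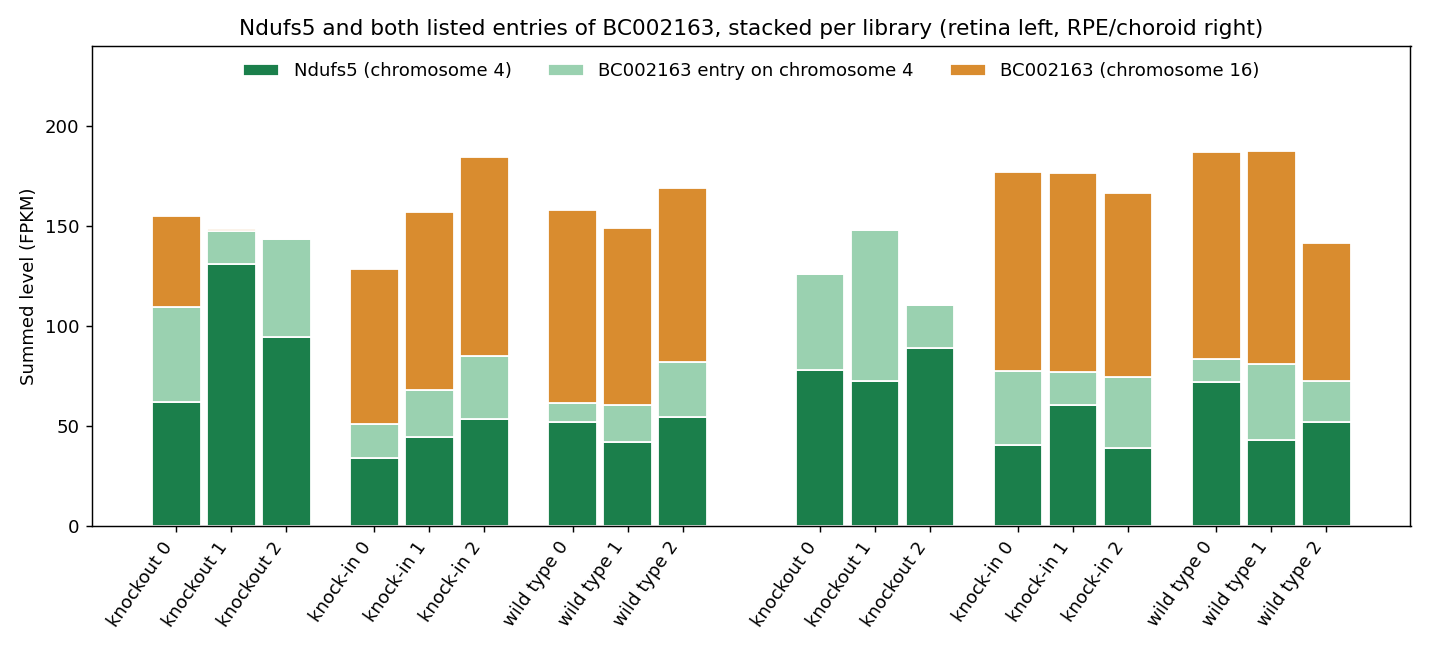
Stacked level in FPKM of Ndufs5, the BC002163 entry on chromosome 4 and BC002163 on chromosome 16 in each library, with retina on the left and RPE/choroid on the right and knockout, knock-in and wild-type libraries in that order. The chromosome 16 part is missing or nearly so in 5 knockout libraries, while the totals lie between 143 and 155 FPKM in knockout retina and between 111 and 148 in knockout RPE/choroid.

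The share of the 3 entries' fragments that fell on chromosome 16 was low in knockout libraries. It is built from the BC002163 values that chose this member, so it is a description only. In retina the share was 31.2%, 0.613% and 0% in knockout libraries, against 62.3%, 58.3% and 54.8% in knock-in and 63.0%, 60.9% and 52.9% in wild-type libraries. For knockout library 0 the exact 95% binomial interval was 28.4% to 34.1%. In RPE/choroid the share was 0%, 0.462% and 0.408% in knockout libraries, against 58.2%, 57.9% and 58.1% in knock-in and 57.0%, 58.6% and 51.1% in wild-type libraries. The libraries at 0 had 0 of 528 fragments in retina, where 3 counts would make 0.568% and the exact interval reaches 0.696%, and 0 of 843 in RPE/choroid, where 3 counts would make 0.356% and the exact interval reaches 0.437%. These intervals and limits cover counting error only.

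AA465934 was low in knockout tissue too, and far more so in RPE/choroid than in retina. In retina it measured 49.3, 47.1 and 12.0 FPKM in knockout, 75.5, 79.3 and 66.2 in knock-in and 71.6, 69.6 and 65.9 in wild-type libraries. Each knockout library was below each of the others, and library 2 stood apart at 17.4% of the wild-type mean, against 71.4% and 68.3% for libraries 0 and 1. In RPE/choroid it measured 4.99, 2.39 and 2.09 FPKM in knockout, 40.0, 31.6 and 29.5 in knock-in and 47.6, 36.0 and 36.9 in wild-type libraries, again with the knockout group wholly below. These were 25.0, 13.3 and 14.4 fragments in knockout RPE/choroid, against 181 to 310 in wild-type RPE/choroid. The knockout mean was 36.1 ± 20.9 FPKM in retina (52.3% of wild type; 69.8% without library 2) and 3.16 ± 1.60 FPKM in RPE/choroid (7.85%). Knockout retinal library 2 also stood apart over genes with at least 20 fragments in a pair of libraries. Chi-square per gene of its fragment counts was 99.8 against library 0 and 87.5 against library 1. Between libraries 0 and 1 it was 16.1. The part of this wider difference in the AA465934 value was not tested.

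The knockout retinal libraries ranked alike for these transcripts, with library 0 highest and library 2 lowest, but their spacing differed. Library 1 had almost no BC002163 but kept AA465934 at a level close to that of library 0. None of the 3 members overlapped between knockout and wild-type libraries in either tissue, and BC002163 and AA465934 were chosen for being low in knockout. Over all tested genes, 11.8% of 14699 had FPKM that did not overlap between knockout and wild-type retina, and 10.4% of 15454 between knockout and wild-type RPE/choroid. At an adjusted p under 0.05, edgeR called 0.98% of the genes in that retinal comparison and 0.472% in that of RPE/choroid.

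**Figure D3:**
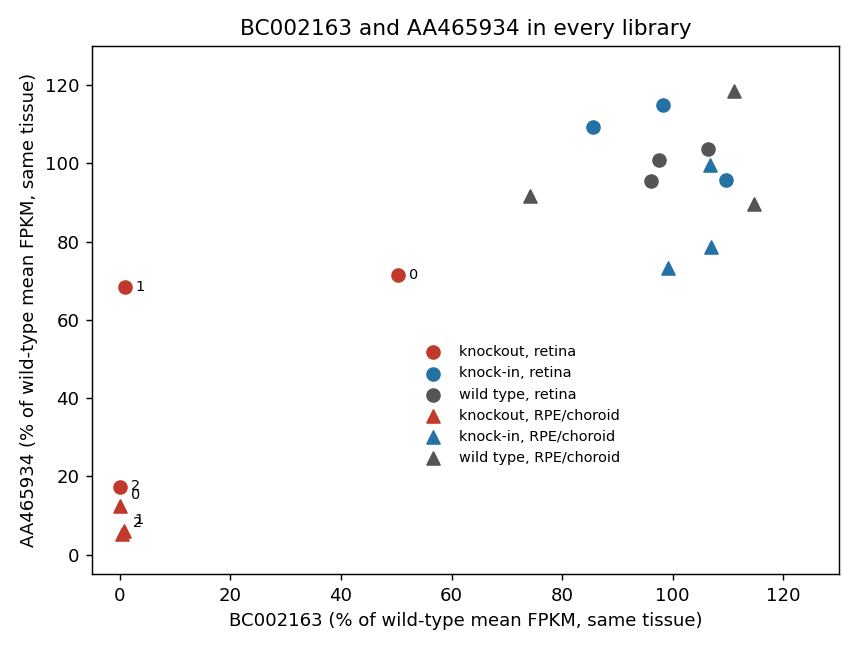
BC002163 (horizontal) against AA465934 (vertical) in each library, each as a percentage of the wild-type mean FPKM of the same tissue; circles are retina, triangles RPE/choroid, and knockout libraries carry their table number. Knock-in and wild-type libraries lie together, while knockout retina libraries 0, 1 and 2 lie at 50.4%, 0.942% and 0% for BC002163 and at 71.4%, 68.3% and 17.4% for AA465934.

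Ordered by mean level, BC002163 was highest in knock-in RPE/choroid (96.9 ± 4.11 FPKM), then wild-type RPE/choroid (93.0 ± 20.8), wild-type retina (90.6 ± 5.05) and knock-in retina (88.6 ± 10.9), each overlapping with its neighbour. Knockout retina and then knockout RPE/choroid followed after a gap. Ndufs5 ran the other way, with knockout retina (95.8 ± 34.5 FPKM) and knockout RPE/choroid (79.8 ± 8.38) first. The remaining groups, from wild-type RPE/choroid (55.5 ± 14.7) to knock-in retina (43.9 ± 9.97), overlapped in sequence. AA465934 had steps of its own: knock-in retina (73.7 ± 6.76 FPKM) and wild-type retina (69.0 ± 2.90) overlapped, then came wild-type RPE/choroid (40.2 ± 6.47), knockout retina and knock-in RPE/choroid (33.7 ± 5.58), which overlapped in sequence, and then knockout RPE/choroid.

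The knock-in mice differ from wild type at the same gene as the knockout mice, and this contrast did not choose the members. None of the 3 was called between knock-in and wild type in either tissue by edgeR's quasi-likelihood test with Benjamini-Hochberg adjustment over all genes, where 0.265% of 14699 genes were called in retina and 0.0647% of 15454 in RPE/choroid. None had an unadjusted p under 0.05, and DESeq2 called none where it gave an adjusted p. In retina the fitted log2 difference was -0.06 for BC002163 (SE 0.957, adjusted p = 0.994), -0.18 for Ndufs5 (SE 0.274, adjusted p = 0.903) and 0.08 for AA465934 (SE 0.387, adjusted p = 0.977). The large errors of BC002163 and AA465934 come with the spread among knockout retinal libraries, which share the fit. With knock-in and wild-type libraries alone the SE was 0.0968 for BC002163 and 0.0947 for AA465934, with log2 differences of -0.06 and 0.08 that were not called (adjusted p = 0.902 and 0.852).

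In RPE/choroid the knock-in difference was log2 0.11 for BC002163 (SE 0.184, edgeR adjusted p = 0.958), -0.26 for Ndufs5 (SE 0.239, adjusted p = 0.906) and -0.26 for AA465934 (SE 0.175, adjusted p = 0.881). The approximate 95% intervals ran from -0.25 to 0.47, from -0.73 to 0.21 and from -0.60 to 0.09, so differences of that size in either direction are not set aside by these data. For the sum of the Ndufs5 and BC002163 rows the difference was log2 -0.10 in retina (interval -0.35 to 0.15, edgeR adjusted p = 0.883) and -0.015 in RPE/choroid (interval -0.32 to 0.29, adjusted p = 0.994). Without wild-type RPE/choroid library 2, the BC002163 difference in RPE/choroid was log2 -0.017 (edgeR adjusted p = 0.989). The knock-in difference of each member was also compared between the tissues as an interaction, and none was called (edgeR adjusted p = 0.909 to 0.995). In the authors' deposited table, q was 0.999 for each of the 3 members between knock-in and wild type in both tissues; it places its BC002163 row at the Ndufs5 position on chromosome 4.

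Between the tissues of wild-type mice, AA465934 was the member whose groups lay apart. It averaged 69.0 ± 2.90 FPKM in wild-type retina and 40.2 ± 6.47 in wild-type RPE/choroid (SD, n = 3 each), with no overlap and a ratio of means of 1.72. The fitted log2 difference, retina over RPE/choroid, was 0.49 (SE 0.286), which edgeR did not call when all 18 libraries shared the estimate of spread (adjusted p = 0.123) and called when the wild-type libraries were fitted alone (SE 0.0924, adjusted p = 0.00161). BC002163 (log2 -0.21, adjusted p = 0.783) and Ndufs5 (log2 -0.35, adjusted p = 0.234) were not called and overlapped between the tissues. The total over the 3 entries was called lower in wild-type retina than in wild-type RPE/choroid (log2 -0.25, SE 0.104, edgeR adjusted p = 0.0325), a test added after seeing the data. Its FPKM overlapped, at 159 ± 10.2 in wild-type retina and 172 ± 26.4 in wild-type RPE/choroid, and the call was lost with limma on log2(FPKM + 1) (log2 -0.11, adjusted p = 0.488) and without any of 3 single libraries, wild-type retina 1 (adjusted p = 0.0779), wild-type retina 2 (0.0627) or wild-type RPE/choroid 0 (0.0712). By the same test 85.9% of 16222 genes differed between the wild-type tissues, and 84% of 15627 genes in the fit of wild-type libraries alone, while 80.3% of the 16222 did not overlap.

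No other complex I subunit gene was called in knockout tissue with edgeR. Of 36 listed genes for subunits other than Ndufs5, 35 were tested in each tissue. For these edgeR called 0 in all 4 comparisons of knockout or knock-in with wild type. Over all genes it called 0.98% in knockout and 0.265% in knock-in retina. In RPE/choroid it called 0.472% for knockout and 0.0647% for knock-in. A count of 0 among 35 genes is near these shares and tells nothing particular about complex I. In retina the median log2 difference was 0.02 for knockout (all genes: -0.0032) and -0.05 for knock-in (all genes: 0.00065). In each comparison 2 of the 35 genes had an unadjusted p under 0.05, against 12.5% of all genes for knockout and 8.5% for knock-in. DESeq2 called 0 of the 35, against 2.23% of all genes for knockout and 0.783% for knock-in retina. For knockout retina the smallest p belonged to Ndufa1, a small membrane-arm subunit, at 141 ± 6.20 FPKM in knockout and 126 ± 14.2 in wild-type retina (log2 0.18, edgeR adjusted p = 0.319), followed by Ndufb8, at 246 ± 3.45 FPKM in knockout against 230 ± 11.9 in wild-type retina (log2 0.15, adjusted p = 0.368). For knock-in retina it belonged to Ndufc2, at 149 ± 6.79 FPKM in knock-in and 165 ± 12.1 in wild-type retina (log2 -0.18, edgeR adjusted p = 0.419), followed by Ndufb5, at 88.8 ± 6.09 FPKM in knock-in against 96.6 ± 4.22 in wild-type retina (log2 -0.14, adjusted p = 0.512).

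In knockout RPE/choroid, 34 of the 35 subunit genes had a log2 difference below 0, with a median of -0.18 against -0.015 over all genes. None was called by edgeR, and 16 of the 35 had an unadjusted p under 0.05, a larger share than the 15.5% of all genes. No test of the list as a whole was run. DESeq2 called 1 of the 35, against 3.71% of all genes. That gene was Ndufa2 (log2 -0.38, adjusted p = 0.0274). Ndufa2 averaged 183 ± 43.5 FPKM in knockout and 231 ± 35.7 in wild-type RPE/choroid, and edgeR gave log2 -0.39 (SE 0.102, adjusted p = 0.134). Ndufb2, another membrane-arm subunit, averaged 182 ± 13.4 FPKM in knockout against 220 ± 4.97 in wild-type RPE/choroid, with no overlap (log2 -0.31, edgeR adjusted p = 0.150). Ndufa3, Ndufb3, Ndufb4, Ndufb5, Ndufb6 and Ndufb8 did not overlap either, and the rest of the list did. Over all tested genes, 10.4% of 15454 did not overlap in this comparison. Without wild-type library 2 edgeR called 2.97% of all genes and 2 of the list, Ndufb3 (log2 -0.24, adjusted p = 0.0499) and Ndufb5 (log2 -0.31, adjusted p = 0.0367). Summed RPE markers were 8297 to 8776 FPKM in knockout and 10310 to 10761 FPKM in wild-type RPE/choroid. In knock-in RPE/choroid they were 8323 to 13503 FPKM, with a median of 9061. All 8 of 8 markers were found and none was at 0 in all libraries. The part of RPE markers in the shift of the subunit genes was not tested.

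In knock-in RPE/choroid the median over the 35 genes was log2 -0.03 (all genes: -0.0038) and no gene had an unadjusted p under 0.05 or a call by DESeq2, against 5.53% and 0.286% of all genes. The smallest belonged to Ndufb2, at 198 ± 22.9 FPKM in knock-in against 220 ± 4.97 in wild-type RPE/choroid (log2 -0.18, edgeR adjusted p = 0.875), and to Ndufs6, at 93.6 ± 9.10 FPKM in knock-in against 102 ± 4.27 in wild-type RPE/choroid (log2 -0.16, adjusted p = 0.875). Of 13 listed assembly factors, proteins that help build complex I without being part of it, 9 were tested. For these edgeR called 0 in each of the 4 comparisons. Its unadjusted p was under 0.05 for 2 of the 9 in knockout retina (12.5% of all genes) and 3 of the 9 in knock-in retina (8.5% of all genes). It was so for 0 in either RPE/choroid comparison, against 15.5% of all genes for knockout and 5.53% for knock-in. In knock-in retina 8 of the 9 had a log2 difference below 0 and 1 above, with a median of -0.12 (all genes: 0.00065).

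**Figure D4:**
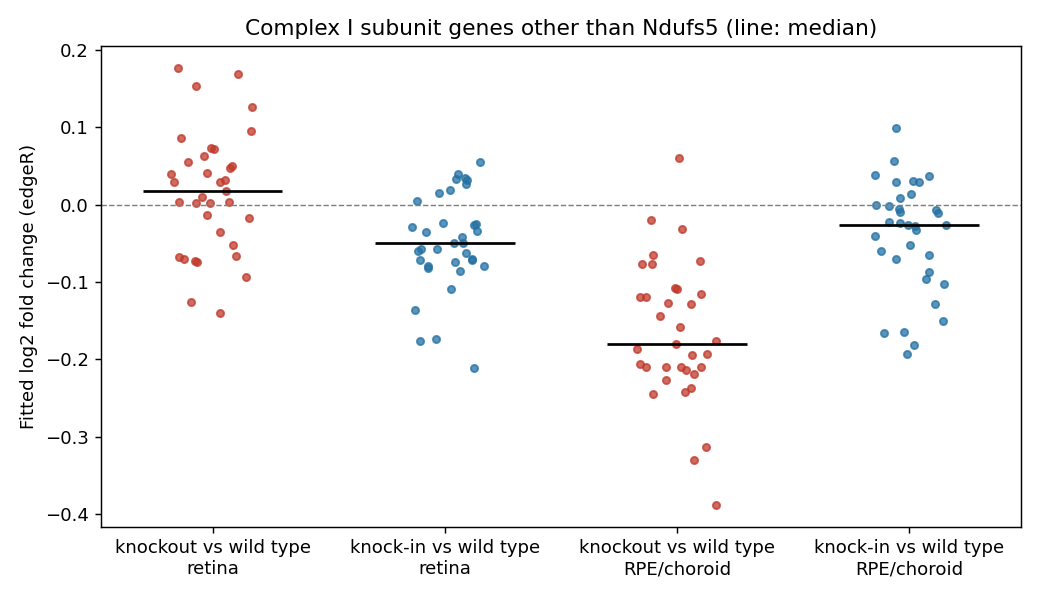
Fitted log2 fold change (edgeR) of 35 complex I subunit genes other than Ndufs5, for knockout and knock-in against wild type in retina and RPE/choroid; each point is a gene and the line is the median. The median is -0.18 in knockout RPE/choroid, where 34 of 35 genes lie below 0, and between -0.05 and 0.02 in the other comparisons.

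Genes next to the members on the chromosome were looked up whatever their values, and of those tested and given here only Rhbdl2, the second listed gene past Ndufs5, was called in knockout tissue. Over all tested genes, edgeR called 0.98% of 14699 for knockout retina and 0.472% of 15454 for knockout RPE/choroid. Whether position had a part in the Rhbdl2 difference was not tested. Around BC002163 on chromosome 16, Gm19522 averaged 4.73 ± 0.993 FPKM in knockout and 5.84 ± 1.15 in wild-type RPE/choroid (log2 -0.31, edgeR adjusted p = 0.308). Zbtb20, a transcription factor gene whose deposited start lies 291204 bases past BC002163, averaged 29.1 ± 2.41 FPKM in knockout against 28.6 ± 1.10 in wild-type RPE/choroid (log2 -0.05, adjusted p = 0.740). In retina Zbtb20 averaged 10.5 ± 0.759 FPKM in knockout libraries and 9.45 ± 0.941 in wild-type libraries (log2 0.17, edgeR adjusted p = 0.419). The other flanking genes, 4932412D23Rik and Mir568, were listed at or near 0 in every library.

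Around AA465934 the deposited tables put other genes under the same position, among them AI450353 and Snord7. Whether the counting used the strand is not given in the sources used here, and AA465934 fragments were whole numbers in 1 of 18 libraries, so some were divided with another entry. Ap2b1, an adaptor subunit of clathrin coats that starts 3719 bases past AA465934 in the deposited tables, averaged 33.6 ± 3.43 FPKM in knockout and 32.8 ± 3.37 in wild-type RPE/choroid (log2 0.02, adjusted p = 0.868). Rasl10b, a small GTPase gene farther on, averaged 1.26 ± 0.253 FPKM in knockout and 3.38 ± 1.71 in wild-type RPE/choroid and was not called (log2 -1.46, adjusted p = 0.124). AI450353 was not called either (log2 -0.05, adjusted p = 0.934), AI662270 likewise (log2 -0.23, adjusted p = 0.774), and Slfn14-ps and Snord7 were listed at or near 0.

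Rhbdl2, which encodes a rhomboid protease of the cell membrane, averaged 2.90 ± 0.50 FPKM in knockout and 0.820 ± 0.201 in wild-type RPE/choroid (log2 1.78, SE 0.267, edgeR adjusted p = 0.0271), and 0.975 ± 0.204 FPKM in knock-in RPE/choroid, where it was not called (adjusted p = 0.958). It was too low to test in retina. Akirin1, which lies between Ndufs5 and Rhbdl2, averaged 34.6 ± 6.18 FPKM in knockout and 41.8 ± 3.86 in wild-type RPE/choroid and was not called (log2 -0.28, adjusted p = 0.134). Macf1, a large linker of actin and microtubules, averaged 28.2 ± 2.64 FPKM in knockout against 25.9 ± 2.71 in wild-type RPE/choroid (log2 0.13, adjusted p = 0.460), and D830031N03Rik, which shares its position, was not called (adjusted p = 0.516). No flanking gene named here was called in retina or between knock-in and wild type in RPE/choroid. The shares over all genes there were 0.98% for knockout retina, 0.265% for knock-in retina and 0.0647% for knock-in RPE/choroid.

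Other genes were ranked by how closely their level followed BC002163 or AA465934 over the 18 libraries, as Pearson's r of log2(FPKM + 0.1) centred on the tissue mean. All libraries enter both sides of each r, so the values describe a likeness chosen for its size. BC002163 was most like Myoc (r = 0.913), which encodes a protein secreted in the front of the eye, the endothelial lipase gene Lipg (0.907), AA465934 (0.884), Ooep (0.883) and Xaf1 (0.873). AA465934 was most like Sae1 (r = 0.919), which encodes a subunit of the SUMO-activating enzyme, Tlcd2 (0.902), Xaf1 (0.900), BC002163 (0.884) and 1700008P20Rik (0.879). Ndufs5 ran against both, with r = -0.773 for BC002163 and -0.606 for AA465934. The fragments of Ndufs5 are divided with the chromosome 4 entry of BC002163, which does not enter these r.

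Some of these r rest in part on values near 0, because a gene needed a mean of 1 FPKM in only 1 group. In retina, group means were 0.155 to 0.248 FPKM for Myoc and 0.0469 to 0.118 for Ooep. Lipg had group means of 0.240 to 0.525 FPKM in RPE/choroid. Myoc measured 70.8, 95.8 and 81.0 FPKM in knockout, 105, 132 and 112 in knock-in and 136, 139 and 112 in wild-type RPE/choroid. Its knockout libraries there lay below all others. Xaf1, an interferon-inducible gene on chromosome 11 like AA465934 and Tlcd2, stood on both lists. It measured 4.07, 4.55 and 4.58 FPKM in knockout, 11.7, 15.2 and 20.4 in knock-in and 13.0, 18.2 and 15.5 in wild-type RPE/choroid. In retina it measured 2.02, 2.15 and 0.834 FPKM in knockout libraries, against 1.96, 2.54 and 3.43 in wild-type libraries, so the low one was library 2, which was also low for AA465934. Lipg had its highest knockout retinal value, 1.45 FPKM, in library 0, against 0.793 and 0.686 in libraries 1 and 2 and 1.49 to 1.75 in wild-type retina, in the same order as BC002163. Sae1 measured 33.4, 27.0 and 27.1 FPKM in knockout, 42.3, 40.8 and 39.5 in knock-in and 42.4, 38.2 and 37.6 in wild-type RPE/choroid. Its knockout libraries lay below all others there. In retina Sae1 measured 50.4, 44.0 and 43.8 FPKM in knockout, 47.7, 49.3 and 50.4 in knock-in and 52.2, 53.4 and 51.5 in wild-type libraries. All these genes were ranked by likeness to members chosen for being low in knockout, so their low knockout values are descriptions only. Over all tested genes, 10.4% of 15454 did not overlap between knockout and wild-type RPE/choroid.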

How the data were processed

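RNA-seq of mouse retina and RPE/choroid was analysed in 18 libraries, 3 per genotype and tissue. The submitters' processing notes name TopHat, Bowtie2 and Cufflinks and the mm9 build; versions, annotation and strand setting are not stated there. The deposited gene and transcript tables give expected counts of fragments and FPKM per library, per the file headers. Of the gene values, 98.5% in retina and 98.4% in RPE/choroid were exactly whole; all were rounded before testing. For each gene the p-value and q-value are in the authors' tables of genotype comparisons, per the file headers. Columns of other samples: 0.

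The rounded counts of all genes entered edgeR 4.0.16, run in R 4.3.3 (robust quasi-likelihood, TMM, filterByExpr), the 9 libraries of a tissue together, or all 18 for the tissue comparison. P-values were adjusted by Benjamini-Hochberg, with calls under 0.05. DESeq2 1.42.0, limma 3.58.1 on log2(FPKM + 1) and log2(FPKM + 0.1), RLE scaling, other filters, left-out libraries and other fits were alternatives. Sequences were read from GENCODE M21.

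The members and gene lists were chosen with earlier results of these data known. Named genes are the members, the 2 genes on either side of each (plus genes under the same position as AA465934), the called list genes or otherwise the 2 with the smallest p, and the 5 genes most like BC002163 and AA465934 with a mean of at least 1 FPKM in a group, sex-linked genes left out. A flanking gene is left out of the text. The sources used here do not tell whether the libraries of a group are separate mice, so p-values measure the spread between these libraries, which may be technical. Table numbers 0 to 2 are not tied to the label numbers 1 to 3. No pair of libraries of a group was a copy (chi-square per gene 3.39 to 99.8).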

Additional observations from a re-analysis of the deposited data

How the results depend on the processing

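No member was called between knock-in and wild type under any alternative run, with adjusted p from 0.712 to 1 where one was given. Of 229 alternative values, 212 were the same as in the main fit. For a test this means the same direction and side of the threshold, with a missing adjusted p read as not called. For a number of complex I calls it means 0 in both fits, which has no direction. Differences near 0 changed sign. For BC002163 the knock-in difference was log2 0.014 in retina with the table number as a replicate block and -0.015 in RPE/choroid with the near copies merged, and for the sum of both rows it was 0.046 in RPE/choroid with the chromosome 4 entry added, an alternative chosen after seeing the data. The replicate block changed no call, and same-numbered libraries did not deviate together in every pair, so the numbers are names only. AA465934 was called between wild-type tissues in the fit of wild-type libraries alone (log2 0.49), also added after seeing the data. Complex I calls in knockout RPE/choroid were 1 by DESeq2. The total over the 3 entries between wild-type tissues was not called with limma on log2(FPKM + 1) or log2(FPKM + 0.1) (both log2 -0.11) or with the Ndufs5 and BC002163 rows only (log2 -0.22), and ranged over log2 -0.36 to -0.23 with each library left out (adjusted p = 0.00474 to 0.0779).

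With each library of the compared groups left out in turn, the knock-in difference ranged over log2 -0.13 to 0.067 for BC002163 in retina (0.067 without wild-type 0) and -0.017 to 0.20 in RPE/choroid (-0.017 without wild-type 2). For the sum it ranged over -0.17 to 0.020 in retina (0.020 without wild-type 0) and -0.10 to 0.13 in RPE/choroid (0.023 without knock-in 0 and 0.13 without wild-type 0). Complex I calls in knockout RPE/choroid ranged over 0 to 2. DESeq2 gave no adjusted p for BC002163 between knock-in and wild-type retina or between wild-type tissues. The cause of these changes was not tested. Knockout values of BC002163 rest on 0 to 6 fragments in 5 of 6 libraries. The division of fragments between the chromosome 4 entries limits the value of Ndufs5. Reads that match both near copies limit the value of each.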
